A study of Mus musculus with 4 samples.

Results

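This account covers the endothelial, mural, dendritic and monocyte-macrophage cells of 2 wild-type mouse libraries, 1 from colonic solitary isolated lymphoid tissues (SILT) and 1 from colonic lamina propria. A barcode was kept with at least 200 genes and at most 10% of its UMIs (unique molecular identifiers, 1 per captured transcript) in mitochondrial genes. A kept cell joined a lineage when it passed 1 gate and no other: at least 4 UMIs of Kdr and Flt1 together (endothelial), at least 4 of Pdgfrb and Notch3 together (mural), at least 2 of Flt3 (dendritic) or at least 2 of Csf1r (monocyte-macrophage). This gave 7054 cells of the 12205 kept in both wild-type libraries and of 16557 in the whole series: 3106 in lamina propria and 3948 in SILT. The wild-type mice were Csf2+/+ and carried 1 CX3CR1-GFP and 1 CCR2-RFP reporter allele, as did the Csf2-/- mice whose 2 libraries are set beside them. Cells had been enriched for CD11b with a StemCell positive selection kit at steady state, with no treatment or age given in the labels. The design text names 5 mice of each genotype but not whether a library pooled them, so each tissue counts as 1 sample and nothing below is tested.

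Colonic SILT span cryptopatches, where innate lymphoid cells gather around dendritic cells, and isolated lymphoid follicles, which also hold B cells. The lamina propria is the connective tissue that surrounds the crypts and holds most gut macrophages, plasma cells and capillaries. Endothelial cells line the vessels and mural cells (pericytes and smooth muscle) wrap them. Dendritic cells carry antigen to T cells. Monocytes entering the gut mature into macrophages that clear debris and keep tolerance to microbes. CSF2 (GM-CSF) acts on dendritic cells, monocytes and macrophages through Csf2ra and Csf2rb.

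Lamina propria held 1086 endothelial, 247 mural, 76 dendritic and 1697 monocyte-macrophage cells, and SILT held 1722, 145, 116 and 1965. Mural cells made up 5.50% of kept lamina propria cells (exact 95% interval 4.85 to 6.21) and 1.88% of SILT cells (1.59 to 2.21), whereas dendritic cells made up 1.69% and 1.5%, with overlapping intervals. Cells that passed several gates are outside these shares. The endothelial and mural gates, and no other, were passed by 425 cells in lamina propria and 315 in SILT. The dendritic and monocyte-macrophage gates, and no other, were passed by 138 and 50. With the UMI minimums of all gates doubled, dendritic cells numbered 47 and 35. With every cell thinned to 2000 UMIs before the gates, mural shares were 5.26% and 1.17% and dendritic shares 0.31% and 0.146% (12 and 9 cells). Shares depend on the CD11b selection and on depth: median UMIs per cell were 7368 and 6130 in endothelial, 6876 and 4520 in mural, 13419.5 and 13790.5 in dendritic and 12182 and 8902 in monocyte-macrophage cells, lamina propria first. The median mitochondrial share was lower in SILT in each lineage, 1.71% to 2.37% against 3.20% to 3.82%. The 10 marker genes of each lineage, none of them a gate gene, summed to between 1255 and 15170 UMIs per 1000000 (CPM) in their own lineage, and none was at 0 there. The label of CD11b+ cells held for only part of the cells: Itgam, which encodes CD11b, stood at 419 CPM in lamina propria and 212 in SILT in the monocyte-macrophage lineage and at 229 and 45.9 in the dendritic lineage, but at 4.44 and 4.0 in endothelial cells and 5.49 and 0 in mural cells. There were 19 barcodes in both wild-type libraries, 7 and 11 of them in a lineage. Cells with over 1% of their UMIs in genes of plasma, T, epithelial, red blood, granulocyte or (outside the mural lineage) fibroblast cells numbered 14 and 33 endothelial, 0 and 0 mural, 1 and 8 dendritic and 40 and 180 monocyte-macrophage cells, and values without them are given beside the largest shifts.

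UMIs were summed over the cells of a lineage in each library, and a ratio is the SILT CPM over the lamina propria CPM, with an exact 95% interval that covers counting error only. A gene was measured in a lineage with at least 50 CPM in 1 of the 2 sums and 30 UMIs over both, and called at 1.5-fold. By this rule 369 of 3815 endothelial genes (9.67%) were called, 148 higher in SILT and 221 lower. In mural cells 1378 of 4076 genes (33.8%) were called, 690 higher and 688 lower. In dendritic cells it was 1583 of 3204 (49.4%), 556 higher and 1027 lower, and in the monocyte-macrophage lineage 1382 of 3446 (40.1%), 334 higher and 1048 lower. Endothelial cells held the smallest share of called genes and dendritic cells, the lineage with the fewest cells, the largest. The balance of directions depended on scaling: with edgeR's TMM factors in place of total UMIs it became 186 higher and 179 lower in endothelial, 864 and 542 in mural, 859 and 692 in dendritic and 695 and 477 in monocyte-macrophage cells. By the mean over cells the endothelial split was 204 higher and 70 lower. Scaled without mitochondrial, ribosomal, immunoglobulin and haemoglobin UMIs, the monocyte-macrophage split was 501 and 758. Relative to genes of like transcript length it was 108 and 78 in endothelial, 480 and 541 in dendritic and 325 and 248 in monocyte-macrophage cells. The log2 ratio of the TMM factors, SILT over lamina propria, was -0.03 in endothelial, -0.08 in mural, -0.23 in dendritic and -0.26 in monocyte-macrophage cells, and every gene's log2 ratio moved up by that size. The median log2 ratio of all measured genes, -0.06, -0.00, -0.19 and -0.28 on the reported scale, is the level against which a gene list is read.

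The lineages shared much of their tissue difference. Over the 2073 genes measured in all 4, the log2 ratios of any pair of lineages correlated with Pearson's r between 0.73 and 0.86, and between 0.77 and 0.89 over the 1862 genes that reached 0.5 of their library's mean level in all 4 lineages. All lineages of a tissue share 1 library, so its depth, free RNA and handling enter each of these points, and genes are not independent replicates. The wild-type and Csf2-/- ratios, which come from separate libraries, correlated with r of 0.49 in endothelial, 0.43 in mural, 0.64 in dendritic and 0.83 in monocyte-macrophage cells, over 2073 genes (2063 in mural cells, since a Csf2-/- ratio was given only with 30 UMIs or more).

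**Figure D1:**
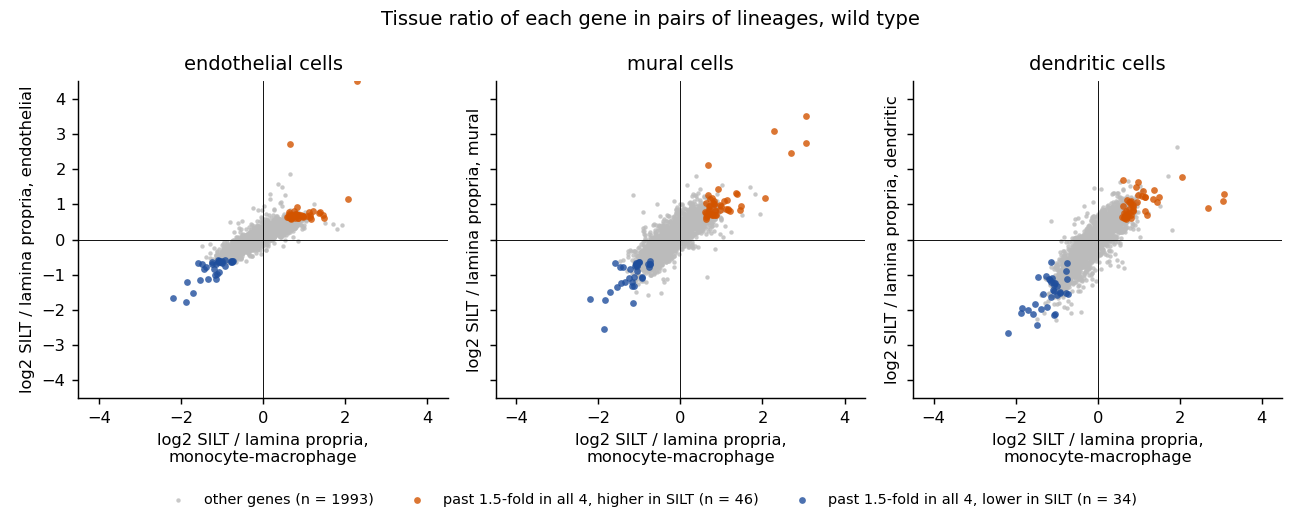
Each point is 1 of 2073 genes measured in all 4 lineages, with its log2 ratio of SILT over lamina propria in the monocyte-macrophage lineage on the x axis and in endothelial, mural or dendritic cells on the y axis. The 46 genes past 1.5-fold higher in all 4 lineages (orange) and the 34 lower in all 4 (blue) lie at the ends of 1 diagonal cloud; 4 genes lie outside the axes.

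Part of what the lineages shared followed transcript length. The 2072 genes with a length in the GENCODE vM21 annotation (median over a gene's transcripts) were split by length into 5 groups of equal size. In the shortest group, with a median of 736 nucleotides, the median log2 ratio was 0.37 in endothelial, 0.59 in mural, 0.53 in dendritic and 0.45 in monocyte-macrophage cells. In the longest group, with a median of 6506 nucleotides, it was -0.28, -0.35, -0.71 and -0.63. In the shortest group 9.88%, 50.4%, 43.6% and 29.9% of genes were higher in SILT, and in the longest 0%, 1.20%, 0.964% and 0.241%. Spearman's rho between length and ratio lay between -0.69 and -0.64 in the 4 lineages. Among cells with 5000 to 15000 UMIs in both libraries the medians of the shortest group ran from 0.34 to 0.60 and those of the longest from -0.57 to -0.22. In Csf2-/- mice rho was -0.13 in endothelial, -0.26 in mural, -0.55 in dendritic and -0.53 in monocyte-macrophage cells. The medians of the gene lists below are not relative to genes of like length, so the part of this gradient in them is not separated.

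**Figure D2:**
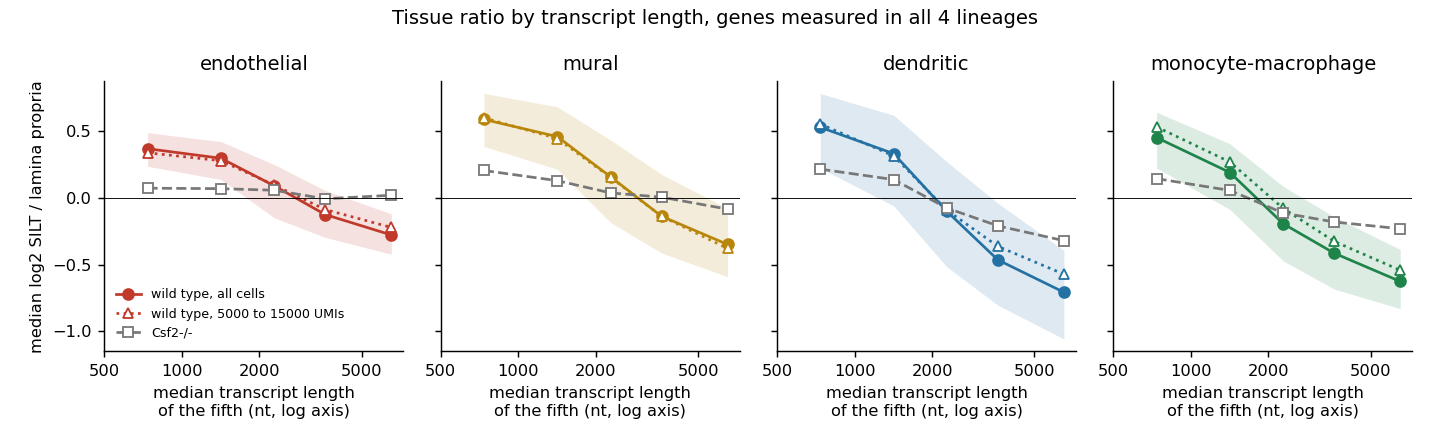
Median log2 ratio of SILT over lamina propria (y axis) in 5 groups of transcript length (x axis, nucleotides, log scale) for each lineage; circles are all wild-type cells with the quartile range of genes shaded, triangles wild-type cells of 5000 to 15000 UMIs and squares Csf2-/- cells. Every wild-type line falls from above 0 in the shortest group to below 0 in the longest.

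Of the 2073 genes, 46 (2.22%) were past 1.5-fold higher in SILT in all 4 lineages, and 36 of these reached 0.5 of the library's level in all 4. Gstp1, a glutathione transferase that conjugates reactive compounds, had the largest smallest fold among these 36: it lay at 58.1 CPM in lamina propria and 128 in SILT in endothelial cells, 68.1 and 156 in mural, 27.2 and 93.9 in dendritic and 22.1 and 92.5 in monocyte-macrophage cells. Its folds were 2.21 (2.0 to 2.44), 2.28 (1.75 to 2.98), 3.45 (2.34 to 5.23) and 4.18 (3.79 to 4.61), and its Csf2-/- log2 ratios 0.32, 0.67, 0.64 and 0.90. The SILT level was thus close to the same in dendritic and monocyte-macrophage cells and higher in both vascular lineages. Tmsb10, which binds free actin monomers, was 1.88-, 2.02-, 2.15- and 1.76-fold higher in the same order of lineages. Spcs1, a subunit of the signal peptidase, was 1.73-, 2.43-, 2.63- and 2.60-fold higher.

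Genes of the mitochondrial respiratory chain stood among them too. Cox5b, a subunit of cytochrome c oxidase, went from 221 to 382 CPM in endothelial, 178 to 325 in mural, 209 to 543 in dendritic and 198 to 427 in monocyte-macrophage cells. Ndufs3 of complex I was 1.64-, 2.12-, 2.01- and 1.76-fold higher and Atp5mpl of the ATP synthase 1.63-, 1.78-, 1.75- and 1.80-fold. Mrpl12 of the mitochondrial ribosome was 1.75-, 1.64-, 1.83- and 1.69-fold higher. The proteasome subunit Psmb2 was 1.63-, 2.71-, 2.79- and 1.90-fold higher, Nop10 of the box H/ACA ribonucleoproteins 1.63-, 2.25-, 2.1- and 1.71-fold and the peroxidase Prdx6 1.62-, 1.77-, 2.07- and 2.74-fold. Except for Mrpl12, the lowest of the 4 ratios was the endothelial one. The median transcript of the 46 genes was 865 nucleotides long, against 2284 for all 2073.

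For 10 of the 46 at least 1 lineage lay below 0.5 of the library's level, and 4 were immunoglobulin genes, which plasma cells make. Jchain, which joins IgA dimers, was 13.4 and 910.4 CPM in endothelial, 16.5 and 188 in mural, 1911 and 4714 in dendritic and 1116 and 9351 in monocyte-macrophage cells. In the SILT endothelial sum 9708 of 11619 Jchain UMIs lay in 4 cells, and in dendritic cells 2148 of 2174 lay in 1 lamina propria cell and 8403 of 8634 in 5 SILT cells. The dendritic log2 ratio was 1.30 and turned to -0.88 with doubled gates. Without cells rich in other types' genes Jchain stood at 13.3 and 152 CPM in endothelial, 23.7 and 139 in dendritic and 32.1 and 176 in monocyte-macrophage cells. With the same cells left out, the kappa light chain Igkc stood at 125, 168, 192 and 220.1 CPM in the endothelial, mural, dendritic and monocyte-macrophage cells of lamina propria and at 1085, 1126, 1072 and 1244 in those of SILT, nearly the same level in lineages as unlike as pericytes and macrophages. Over all kept cells Igkc made up 4778 CPM in lamina propria and 37543 in SILT. Cd52, a leukocyte surface glycoprotein, was likewise 6.53- and 4.33-fold higher in the vascular lineages, at levels of 108 and 90.5 CPM in SILT, but 1.52- and 1.59-fold in dendritic and monocyte-macrophage cells, where it stood at 3458 and 1574. Ssr4 of the translocon-associated complex was 1.75-, 1.74-, 1.63- and 2.31-fold higher and Sec61b of the translocon 1.53-, 1.92-, 2.29- and 2.80-fold, with a vascular lineage below 0.5 of the library's level for each.

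The 34 genes lower in SILT in all 4 lineages (1.64% of 2073) were led by Lars2, the mitochondrial leucyl-tRNA synthetase. It fell from 801 to 233 CPM in endothelial, 1053 to 179.6 in mural, 544 to 128 in dendritic and 777 to 213 in monocyte-macrophage cells, which is 3.45-fold (3.30 to 3.60), 5.86-fold (4.90 to 7.07), 4.24-fold (3.64 to 4.95) and 3.65-fold (3.54 to 3.77). In Csf2-/- mice its log2 ratios were -0.47, -1.04, -0.49 and -0.18. Sec61a1, the channel of the endoplasmic reticulum translocon, was 1.99-, 2.29-, 2.20- and 2.25-fold lower, although Sec61b of the same channel was higher. The long non-coding RNA Kcnq1ot1 was lower by 1.80-, 2.49-, 2.17- and 2.28-fold and the paraspeckle RNA Neat1, which lay below 0.5 of the library's level in the vascular lineages, by 2.28-, 3.29-, 3.84- and 3.60-fold.

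Dync1h1, the dynein heavy chain, was 1.63-, 2.49-, 2.29- and 2.20-fold lower and the cytolinker Plec 1.60-, 1.60-, 4.36- and 3.01-fold. Spen, a transcriptional corepressor, was 1.67-, 2.12-, 2.84- and 1.90-fold lower, Med13 of the Mediator kinase module 1.56-, 1.71-, 2.88- and 1.71-fold and the AP-1 member Fosl2 1.56-, 1.60-, 4.33- and 2.05-fold. Plec, Fosl2 and Ppp1r9b, a spine and junction scaffold, had their largest reduction in dendritic cells, of 4.36-, 4.33- and 4.40-fold, and Ppp1r9b and Fosl2 in mural cells had intervals reaching down to 1.03. The median transcript of the 34 genes was 4570 nucleotides long, and 6 of them are encoded by mitochondrial DNA.

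How many of the shared genes held depended on the setting. Relative to genes of like length, a ratio chosen after the data were seen, 24 genes were higher and 25 lower in all 4 lineages, and they included 5 of the 46 and 11 of the 34. Doubled gates kept 19 of the 46 and 20 of the 34, the mean over cells 20 and 11, cells of 5000 to 15000 UMIs 17 and 19, and leaving out cells rich in other types' genes 30 and 23. Thinning to 2000 UMIs, which left 171 genes measured in all 4 lineages, kept 2 and 2, whereas TMM factors kept 46 and 21. In Csf2-/- mice 3 of 1874 genes were past 1.5-fold higher in all 4 lineages (0.16%) and 4 lower (0.213%). Of the 46 wild-type genes 45 had a Csf2-/- ratio in all 4 lineages and 30 of them were above 1 in all 4, and of the 34 lower genes 22 were below 1 in all 4: the median log2 ratios of the 46 were 0.19, 0.37, 0.44 and 0.34 in Csf2-/- endothelial, mural, dendritic and monocyte-macrophage cells, against 0.70, 0.95, 0.96 and 0.83 in wild type.

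**Figure D3:**
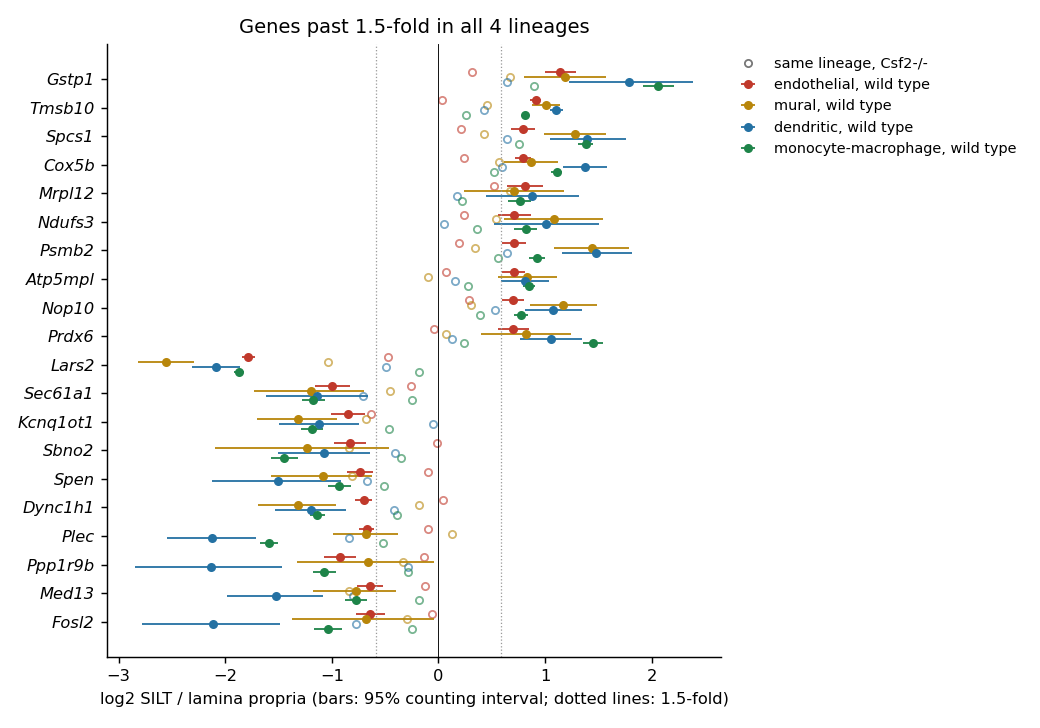
Log2 ratio of SILT over lamina propria (x axis) of the 10 leading genes per direction at 0.5 of the library's level or more, with a filled point and 95% counting interval for each wild-type lineage and an open point for the same lineage in Csf2-/- mice. All filled points lie beyond the dotted 1.5-fold lines, and most open points lie inside them.

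The promoters of Gstp1 and Lars2 are shown because these genes had the largest smallest fold in each direction among genes at 0.5 of the library's level or more. They are the 250 bases before the RefSeq start site in GRCm38.p6, 5′ to 3′ on the gene's strand, for Gstp1 (chr19:4037913-4038162, minus strand) with an AP-1 motif (TGANTCA) in capitals and for Lars2 (chr9:123366677-123366926, plus strand) with 2 GC boxes (GGGCGG) in capitals.
Gstp1: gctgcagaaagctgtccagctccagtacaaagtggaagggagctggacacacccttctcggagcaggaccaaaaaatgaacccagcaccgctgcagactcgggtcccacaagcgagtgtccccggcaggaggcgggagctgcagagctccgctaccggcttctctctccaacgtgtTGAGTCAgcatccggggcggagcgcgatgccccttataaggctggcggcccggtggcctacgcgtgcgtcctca
Lars2: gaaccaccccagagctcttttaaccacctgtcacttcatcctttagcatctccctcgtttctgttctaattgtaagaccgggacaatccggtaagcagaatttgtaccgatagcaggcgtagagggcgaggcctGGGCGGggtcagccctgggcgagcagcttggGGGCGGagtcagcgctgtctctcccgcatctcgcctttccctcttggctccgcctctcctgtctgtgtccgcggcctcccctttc
Motifs were searched on both strands, and the Gstp1 promoter also holds a GC box and the Lars2 promoter a kappa B motif (ggga, any 4 bases, cc). AP-1 motifs stood in 5 of 38 promoters of the genes higher in all 4 lineages (13.2%), in 0 of 25 of the lower genes and in 3.63% of 2092 promoters of the genes measured in all 4. The GC box stood in 52.6% of the higher, 68% of the lower and 61.2% of all these promoters. Promoters were matched by symbol for 33 of the 46 higher, 20 of the 34 lower and 1665 of all 2073 genes, and a match describes these letters, not a bound site.

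Nuclear and mitochondrially encoded genes of oxidative phosphorylation had medians on opposite sides of 0 in all 4 lineages. Of 25 nuclear genes of oxidative phosphorylation, 5 of 24 measured were called higher in endothelial cells, 12 of 23 in mural, 12 of 23 in dendritic and 14 of 23 in monocyte-macrophage cells, against 3.88%, 16.9%, 17.4% and 9.69% of all measured genes, and 1 was lower, Sdhc in dendritic cells. Their median log2 ratios were 0.46, 0.60, 0.59 and 0.60. The 13 protein genes of mitochondrial DNA were on the lower side, with 6, 6, 11 and 7 called lower and none higher, and medians of -0.39, -0.48, -0.89 and -0.60. The background for lower calls was 5.79%, 16.9%, 32.1% and 30.4%. The nuclear list is short in transcript length, and the mitochondrial share of all UMIs differed between the tissues as given above. mt-Atp8 fell most, from 207 to 65.3 CPM in endothelial and from 279 to 60.9 in monocyte-macrophage cells. The 28 cytosolic ribosomal protein genes had medians of 0.26, 0.40, 0.20 and 0.27, with 0, 8, 2 and 2 called higher. Only the mural count stood above its share of all measured genes, which were 3.88%, 16.9%, 17.4% and 9.69%. Scaled without mitochondrial, ribosomal, immunoglobulin and haemoglobin UMIs, 1, 9, 3 and 6 were higher and 0, 0, 1 and 1 lower.

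Other lists differed in direction between lineages. Of the immediate early genes that tissue dissociation also induces, 15 of 23 were lower in dendritic cells (median -0.73) and 8 of 21 in the monocyte-macrophage lineage (median -0.45), whereas in endothelial cells 1 of 22 was higher and none lower (median 0.18) and in mural cells 4 were higher and 2 lower of 22 (median 0.28). Of all measured genes 32.1% were lower in dendritic and 30.4% in monocyte-macrophage cells, so the count in the latter is near the background, and it was 5 of 21 without cells rich in other types' genes. Under TMM scaling the counts of lower genes were 10 and 4 and all 4 medians kept their sign. Fosb, an AP-1 subunit, fell from 1617 to 451 CPM in dendritic cells, from 876 to 415 in the monocyte-macrophage lineage and from 862 to 438 in mural cells. A different gene, Fos, went from 1358 to 1974 in endothelial cells, short of a 1.5-fold call. Socs3, a feedback inhibitor of cytokine signalling, fell from 310.3 to 73.2 in dendritic cells. Of 10 measured interferon response genes 6 were higher in mural cells (median 0.65), led by Ifit3 at 25.3 and 77.8 CPM and Isg15 at 33.0 and 77.8, but 0 of 21 in endothelial, 1 of 6 in dendritic and 1 of 9 in monocyte-macrophage cells, where the 1 was Bst2 in both. Of all measured mural genes 16.9% were higher. Within mural cells 9 of 10 were higher among cells with at least 5 UMIs of Acta2 and Myh11, called contractile here (90 in lamina propria and 50 in SILT), and 0 of 8 higher and 1 lower among the others. Endothelial genes moved with them in the contractile cells, where 4 of 6 measured endothelial markers (median 2.24) and 6 of 7 capillary genes (median 1.61) were higher. Over all mural cells the 10 endothelial markers summed to 526 CPM in lamina propria and 820 in SILT, with none at 0, against 9227 and 7826 in endothelial cells, and their part in the interferon counts was not tested. Interferon genes were also higher in 7 of 16 and lower in 1 among the 14 and 41 endothelial cells with at least 2 UMIs of Ackr1, Selp or Madcam1 (median 0.51). They were higher in 5 of 11 and lower in none among the 288 and 366 monocyte-macrophage cells with under 5 UMIs of the C1q genes (median 0.43). The share of all genes called is not given for these groups or for the contractile and other mural cells. List counts within such groups therefore have no background here and are not read as a result. MHC class II genes were higher by medians of 1.44 in endothelial and 1.04 in mural cells, but none of them reached 0.5 of the library's level there: Cd74, the invariant chain, stood at 174 and 626 CPM in endothelial cells and at 10769 and 17068 in the monocyte-macrophage lineage.

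**Figure D4:**
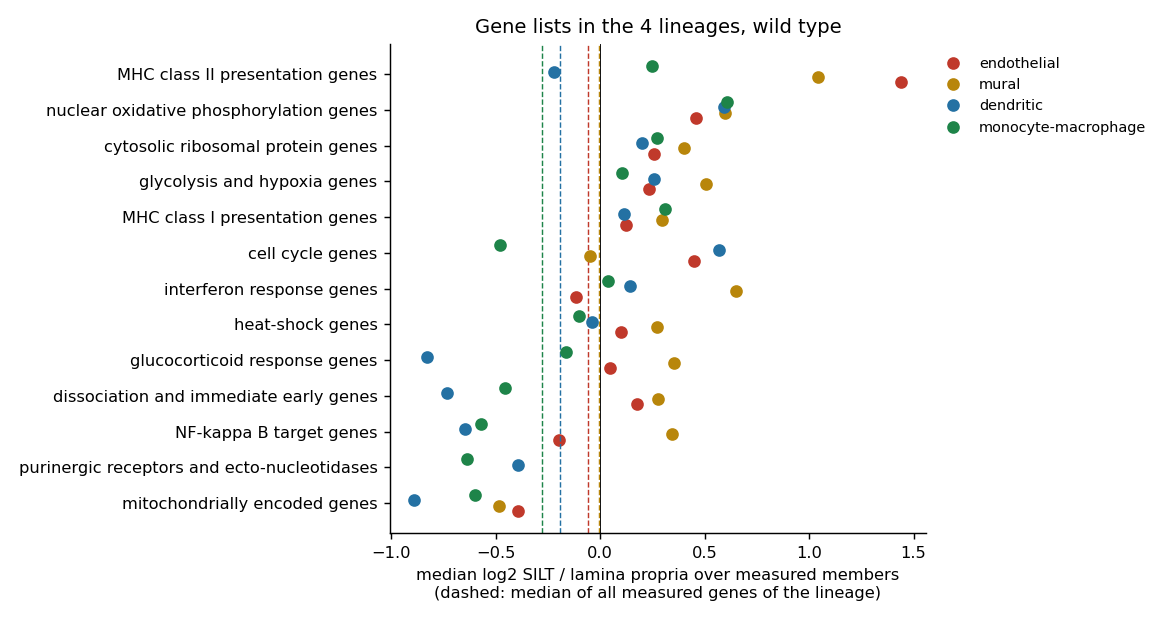
Median log2 ratio of SILT over lamina propria (x axis) for gene lists with at least 4 measured members, 1 point per wild-type lineage, and dashed lines at the median of all measured genes of that lineage. Nuclear oxidative phosphorylation genes lie above 0 and mitochondrially encoded genes below 0 in all 4 lineages, and immediate early genes lie above 0 in the vascular and below 0 in the immune lineages.

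Genes measured in 1 lineage only were past 2-fold higher in 6 and lower in 3 of 528 in endothelial cells (1.14% and 0.568%), in 30 and 70 of 806 in mural (3.72% and 8.68%), in 48 and 57 of 296 in dendritic (16.2% and 19.3%) and in 33 and 44 of 270 in monocyte-macrophage cells (12.2% and 16.3%). Few genes passed the rule for 1 lineage alone. Under the rule of 2-fold in 1 lineage and at most 25% above or 20% below 1 in the other 3, there were 2 of 2073 in mural cells (0.0965%), 2 in dendritic cells (0.0965%) and none in endothelial or monocyte-macrophage cells. The mural genes were Nfkbia, the inhibitor that holds NF-kappa B in the cytoplasm, at 81.3 and 165 CPM (2.03-fold, 1.58 to 2.61), and Phax, an exporter of small nuclear RNA, at 54.9 and 110.3 (2.01-fold, 1.47 to 2.73). Nfkbia in mural cells and Sypl, named next, in dendritic cells lay below 0.5 of their library's level. The dendritic genes were Jun, the main partner of Fos in AP-1, which fell from 2039 to 913 CPM (2.23-fold, 2.1 to 2.38), and Sypl, a vesicle protein, which fell from 52.7 to 26.2 (2.01-fold, 1.35 to 3.01) and whose log2 ratio was 0.15 among Xcr1 or Clec9a cells. The promoter of Nfkbia, a gene that NF-kappa B itself induces, is shown with its 2 kappa B motifs in capitals (GRCm38.p6, chr12:55492648-55492897, minus strand).
Nfkbia: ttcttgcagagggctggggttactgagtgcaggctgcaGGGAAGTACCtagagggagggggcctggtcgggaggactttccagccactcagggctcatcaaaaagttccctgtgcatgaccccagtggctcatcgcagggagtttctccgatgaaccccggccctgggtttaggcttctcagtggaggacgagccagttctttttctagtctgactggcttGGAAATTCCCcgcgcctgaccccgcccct
A looser rule, added after the data were seen, asked for 2-fold from the median of the other 3 lineages and a call in the same direction. It found 10 genes in endothelial cells (0.482%, all higher), 9 higher and 2 lower in mural cells (0.434% and 0.0965%), 6 higher and 53 lower in dendritic cells (0.289% and 2.56%) and 3 higher and 1 lower in the monocyte-macrophage lineage (0.145% and 0.0482%). None of the 10 endothelial genes reached 0.5 of the SILT library's level: they included Jchain, Igkc, Igha, Cd74 and Cd52. Of the 53 lower dendritic genes 43 did, among them Socs3, Egr1, Zfp36, Klf6 and Klf10 besides Jun, all rapidly induced genes named here after their values were seen.

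In endothelial cells, which had the fewest calls, Apln, the ligand of the apelin receptor and a marker of endothelial tip cells, rose from 9.90 to 54.8 CPM (5.54-fold, 4.43 to 7.01), with UMIs in 17 of 1086 and 144 of 1722 cells, and its Csf2-/- log2 ratio was -0.04. Of 12 measured genes of the tip and activation list it was the 1 higher, while 4 were lower, Nid2, Pdgfb and Col4a2 among them, with a median of -0.33 against -0.06 for all measured genes. Without cells rich in other types' genes 2 were lower. With all cells, 3.88% of measured endothelial genes were higher and 5.79% lower. Vwf, the platelet adhesion factor, went from 35.0 to 71.4 CPM (2.04-fold, 1.79 to 2.33; Csf2-/- log2 -0.57). Its log2 ratio was -0.056 within the 14 and 41 cells with at least 2 UMIs of Ackr1, Selp or Madcam1 and 1.18 in the other endothelial cells. Car4, a carbonic anhydrase of capillaries, went from 114 to 244 (2.14-fold, 1.99 to 2.30), and Enpp6 from 52.4 to 117 (2.22-fold, 2.0 to 2.47). Ankrd37, a hypoxia-induced gene, was higher in both genotypes, by 2.47-fold in wild type and a log2 ratio of 1.39 in Csf2-/- cells. Lower were Btnl9 (227 to 105 CPM), the mechanosensitive channel Piezo2 (89.6 to 40.4), the guidance ligand Sema3c (57.7 to 29.6) and Podxl, a sialomucin of the vessel surface (1588 to 863).

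The arterial, capillary and venous lists moved little: 1 of 9, 1 of 13 and 1 of 7 measured members were higher, namely Edn1, Car4 and Vwf, and 0, 1 and 0 lower. Of all measured endothelial genes 3.88% were higher and 5.79% lower. Madcam1, the mucosal addressin that brings lymphocytes into gut lymphoid tissue, was below the level for a measured gene, with 48 UMIs in 13 cells (5.46 CPM) in lamina propria and 210 in 35 cells (16.5 CPM) in SILT, a ratio of 3.01 (2.19 to 4.21). In Csf2-/- endothelial cells it went the other way, 37.3 and 9.69 CPM. Venule-like cells with at least 2 UMIs of Ackr1, Selp or Madcam1 were 14 of 1086 in lamina propria (1.29%, 0.71 to 2.15) and 41 of 1722 in SILT (2.38%, 1.71 to 3.22), and cells with at least 1 such UMI after thinning each cell to 2000 UMIs were 1.26% and 2.37%. The mural cells, which should lack these genes, gave 1.26% and 0.719% after thinning. Their intervals of 0.26 to 3.62 and 0.018 to 3.94 hold both endothelial shares and are too wide to tell these from background. Madcam1 alone had 0 UMIs in lamina propria and 1 in SILT over all mural cells. By fold alone the leading endothelial genes were the epithelial genes Spink4, Mptx1 and Tff3, at 276, 639 and 67.4 CPM in SILT against 0.341, 0.796 and 0.341 in lamina propria. Their folds of 808, 803 and 197 became 55.4, 46.4 and 22.8 without the 14 and 33 cells rich in other cell types' genes.

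The mural lineage was the smallest in UMIs, and several of its largest ratios rest on few cells. Ccl21a, a chemokine of lymphoid stroma whose near-identical gene copies make its count uncertain, had no UMI in lamina propria and 531 in SILT, at least 456-fold higher against a floor of 3 counts, but 529 of the 531 lay in 1 of 3 cells. Ccl19, which draws T cells and dendritic cells into lymphoid tissue, had 2 and 58 UMIs, the latter in 5 cells, and the complement gene C3 had 1 and 106, the latter in 1 cell. Broader changes were those of Fxyd2, a regulator of the sodium pump, at 25.8 and 184 CPM (7.12-fold, 5.06 to 10.2) with UMIs in 34 of 247 and 31 of 145 cells, and of Pabpn1l at 36.3 and 117 (3.24-fold, 2.31 to 4.54). Fxyd2 was 1.72 on the log2 scale in Csf2-/- mural cells. Syn3, a synapsin, fell from 115 to 24.0 CPM (4.78-fold, 2.91 to 8.36), with UMIs in 116 and 17 cells, whereas 238 of 601 lamina propria UMIs of Hhip, a Hedgehog antagonist, lay in 1 cell.

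Of 16 pericyte genes 6 were lower in SILT and 1 higher (median -0.23), where 16.9% of all measured mural genes were called in each direction. Under TMM scaling 3 were lower and 3 higher (median -0.16), so the excess of lower genes depended on the scaling. Abcc9, a potassium channel subunit of pericytes, fell from 1227 to 614 CPM and Mcam from 193 to 117, whereas Cox4i2, a cytochrome oxidase isoform that pericytes express, went from 552 to 1049. Contractile genes were split, with Tagln at 1046 and 2178 CPM and Acta2 at 1090 and 1749, 2 of 13 higher and 2 lower, near that background. Contractile cells as defined above made up 36.4% of lamina propria (30.4 to 42.8) and 34.5% of SILT mural cells (26.8 to 42.8). With at least 1 UMI after thinning they were 57.3% and 61.9%, against 5.36% and 6.14% of endothelial cells. Abcc9 was lower inside both the contractile cells (log2 ratio -1.08) and the others (-1.02).

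Dendritic cells had the largest share of calls. Their sums leave out the cells that passed the Flt3 and Csf1r gates and no other. These numbered 138 in lamina propria, against 76 inside the sums, and 50 in SILT, against 116. Among type 2 dendritic cell genes 9 of 12 measured were lower in SILT and 1 higher, with a median of -1.68 against -0.19 for all measured genes, while of 12 type 1 genes 5 were higher and 1 lower (median 0.55). The background was 17.4% higher and 32.1% lower. Among cells of 5000 to 15000 UMIs the medians were -0.93 and 0.79. Clec10a, a lectin of type 2 cells, fell from 201 to 34.9 CPM (5.76-fold, 4.35 to 7.73) and Itgam from 229 to 45.9 (5.00-fold, 3.9 to 6.48), with Csf2-/- log2 ratios of -0.90 and -1.17. Il1rl1, the IL-33 receptor, went from 76.5 to 9.83 and Ccr2 from 295 to 77.5 CPM, the latter in mice with 1 Ccr2 allele replaced by a reporter. The type 1 genes Xcr1, a chemokine receptor, and Itgae, the CD103 integrin chain, went from 69.4 to 179 and from 47.5 to 134 CPM.

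Cells with at least 2 UMIs of Xcr1 and Clec9a were 14 of 76 dendritic cells in lamina propria (18.4%, 10.5 to 29.0) and 53 of 116 in SILT (45.7%, 36.4 to 55.2). With at least 1 UMI of either gene after thinning to 2000 they were 17.1% (9.43 to 27.5) and 28.4% (20.5 to 37.6), and 0.315% and 0% of endothelial cells passed. In the 58 and 56 cells with neither these genes nor Ccr7 and Fscn1, type 2 genes were still lower (8 of 12, median -0.94), and the log2 ratios of Itgam and Clec10a were -1.53 and -1.71. Within the Xcr1 or Clec9a cells (14 and 52, leaving out 1 SILT cell that also had at least 2 UMIs of Ccr7 and Fscn1) type 1 genes had 0 of 14 higher and 6 lower (median -0.33). These cells were picked by type 1 genes, so the selection bears on this count and its sign is not set against the whole lineage. The share of all genes called within either group of cells is not given, so list counts within them have no background here. Oxidative phosphorylation genes were higher in 14 of 21 of the cells with neither (median 0.71) and in 8 of 24 (3 lower) among Xcr1 or Clec9a cells (median 0.40), and the log2 ratio of Fosb was -1.65 and -1.77. Epcam, also on the type 2 list, rose from 31.6 to 190.0 CPM. It is an epithelial gene too, and 4 of 4 measured genes of the epithelial list were higher in dendritic cells, with a median log2 ratio of 4.86 that was 1.99 without the 1 and 8 cells rich in other types' genes. Without those cells Epcam itself was at 31.9 and 134.5 CPM, 4.21-fold higher.

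Il22ra2, whose product is a secreted decoy for IL-22, was at 0 in lamina propria dendritic cells, which allows up to 3 counts, and at 139.8 CPM in SILT (256 UMIs in 27 of 116 cells), at least 53.0-fold higher. Of these UMIs 198 lay in the 56 cells without type 1 or Ccr7 and Fscn1 genes and 10 in the 52 with Xcr1 or Clec9a alone. In Csf2-/- dendritic cells Il22ra2 was not higher in SILT, at 3.97 CPM in lamina propria and 1.59 in SILT, from 6 and 2 UMIs. Pglyrp1, a peptidoglycan recognition protein, rose from 7.91 to 93.9 CPM (11.9-fold, 6.11 to 26.4), Dnase1l3, a secreted nuclease, from 10.5 to 92.3 (8.75-fold, 4.88 to 17.3) and the protease inhibitor Spint2 from 11.4 to 86.8 (7.60-fold, 4.32 to 14.6). Genes of dividing cells were higher in 5 of 12 (median 0.57), where 17.4% of all measured dendritic genes were. The replication factor Pclaf went from 35.2 to 311 CPM, with UMIs in 10 of 76 and 30 of 116 cells. Ccl22, which draws regulatory T cells, fell from 383 to 35.5 CPM, but 319 of its 436 lamina propria UMIs came from 1 cell.

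In the monocyte-macrophage lineage Il22ra2 had 19 UMIs in 2 of 1697 lamina propria cells (0.831 CPM) and 2997 in 255 of 1965 SILT cells (129.6 CPM), 156-fold higher (99.7 to 259), with 18 of the lamina propria UMIs in 1 cell. It was 0 and 68.4 CPM in Csf2-/- cells. SILT endothelial and mural cells held 8.07 and 8.48 CPM of it, and their lamina propria counterparts none. Acp5, a lysosomal acid phosphatase, rose from 32.0 to 237 CPM (7.42-fold, 6.86 to 8.02), Gpnmb, a glycoprotein of lipid-laden macrophages, from 7.65 to 53.4 (6.98-fold, 5.95 to 8.22), Pla2g2d, a secreted phospholipase, from 6.34 to 44.0 (6.94-fold, 5.83 to 8.32) and Fabp5, a fatty acid carrier, from 21.3 to 74.7 (3.50-fold, 3.16 to 3.88). Their Csf2-/- log2 ratios were 1.5, 1.21, 1.71 and 1.12, in the same direction. Of the lysosome and lipid list 6 of 18 measured genes were higher and 3 lower (median 0.23), against 9.69% and 30.4% of all measured genes (median -0.28). Lpl, the lipoprotein lipase, was the lowest of the list, at 262 and 66.7 CPM.

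Genes of long-lived resident gut macrophages were lower in 11 of 15 and higher in none, with a median of -0.84 against -0.28 for all measured genes, and of -0.04 in Csf2-/- mice. The scavenger receptor Cd163 fell from 369.5 to 128 CPM, the hyaluronan receptor Lyve1 from 803 to 359, the transglutaminase F13a1 from 1096 to 450.4 and Stab1 from 885 to 405. TMM scaling left 7 of 15 lower (median -0.58), and without cells rich in other types' genes the median was -0.63. Of 18 core macrophage genes 1 was higher and 2 lower, with a median of -0.01 that TMM scaling moved to 0.25. Without cells rich in other types' genes 5 of the 18 were higher and 1 lower. Of 8 measured monocyte genes 2 were higher and 4 lower, where 9.69% and 30.4% of all measured genes were: Fn1, fibronectin, fell from 509 to 164 CPM and S100a4 from 993 to 446, while Ly6c2 went from 46.4 to 149.7. The log2 ratio of Ly6c2, 1.69, was 0.87 without cells rich in other types' genes. Among cytokine and chemokine genes 5 of 11 were higher and 1 lower, with Il1b at 290.4 and 499, Cxcl2 at 233 and 488, Ccl12 at 27.1 and 65.7 and Ccl9 at 462 and 142 CPM.

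Cells with at least 5 UMIs of the C1q genes, the mature macrophages, were 83.0% of the lineage in lamina propria (81.2 to 84.8) and 81.4% in SILT (79.6 to 83.1). With at least 1 UMI after thinning they were 86.1% and 84.9%, against 20.5% and 27.9% of endothelial cells. Within them Il22ra2, Acp5, Gpnmb and Pla2g2d had log2 ratios of 7.29, 2.89, 2.77 and 2.79, and 12 of 16 resident genes were lower. The share of all genes called lower within these C1q cells is not given. Adamdec1, a protease of mature gut macrophages, had a log2 ratio of 2.25 in the C1q cells but -1.34 in the 288 and 366 C1q-low cells. The largest folds of the whole lineage were those of epithelial genes such as Lypd8, at 0.0875 and 162 CPM, and Zg16, at 0.219 and 235. All 11 measured epithelial genes were higher, with a median log2 ratio of 8.56 that was 4.84 without the 40 and 180 cells rich in other types' genes.

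**Figure D5:**
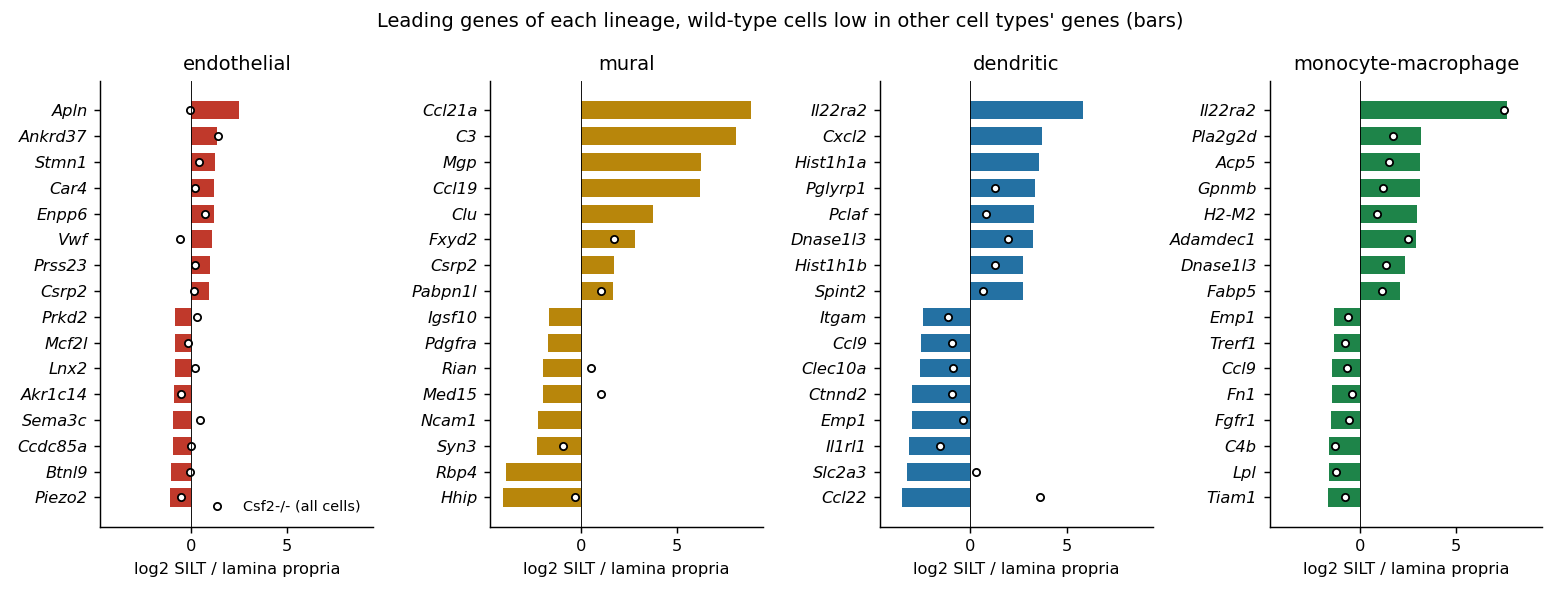
Log2 ratio of SILT over lamina propria (x axis) of the 8 leading genes per direction in each lineage, in wild-type cells without those rich in other cell types' genes (bars) and in all Csf2-/- cells of the lineage (open circles, given only with 30 UMIs or more); genes with no UMI in 1 library are set to its floor of 3 counts. Each monocyte-macrophage circle lies on the side of its bar, while the mural circles of Med15 and Rian lie opposite to theirs.

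Both chains of the CSF2 receptor had ratios below 1 in the immune lineages. Csf2ra went from 134 to 87.3 CPM in dendritic (1.54-fold, 1.23 to 1.93) and from 151 to 99.4 in monocyte-macrophage cells (1.51-fold, 1.44 to 1.60), and Csf2rb from 152 to 92.8 (1.64-fold, 1.32 to 2.04) and from 131 to 87.6 (1.49-fold, 1.41 to 1.58), the last just inside the 1.5-fold line. These calls ended among cells of 5000 to 15000 UMIs, where the log2 ratios of Csf2ra and Csf2rb were -0.25 and -0.23 in dendritic and -0.29 and -0.18 in monocyte-macrophage cells, and under TMM scaling, with -0.39 and -0.48 in dendritic cells and -0.34 for Csf2ra in the monocyte-macrophage lineage. Of 10 measured CSF2 receptor and response genes 2 were higher and 6 lower in dendritic cells, against 17.4% and 32.1% of all measured genes. In the monocyte-macrophage lineage 1 of 8 was higher, Bcl2a1b (113 to 255 CPM), and 3 lower, near the background of 9.69% and 30.4%. Cx3cr1 was 369 and 281 CPM in this lineage and Ccr2 314 and 190.4, both with 1 allele replaced by a reporter. Of the purinergic receptors and ecto-nucleotidases, 22 genes that sense or degrade extracellular nucleotides, 1 to 6 were measured in a lineage. The lower ones were P2rx7 (84.8 to 41.2 CPM), P2ry12 (124 to 74.8) and P2ry13 (61.7 to 37.4) in the monocyte-macrophage lineage and P2ry6 and P2rx4 in dendritic cells, and none was higher. These are 3 of 6 and 2 of 5 measured genes, the latter near the 32.1% of all dendritic genes called lower. Without cells rich in other types' genes P2ry12, P2ry13, Ccr2 and Csf2ra in the monocyte-macrophage lineage had log2 ratios of -0.47, -0.43, -0.48 and -0.36, inside the 1.5-fold line.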

How the data were processed

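Single-cell libraries (10x Genomics 3' version 2) of CD11b-selected colon cells were analysed, 1 per genotype and tissue. The deposited values are counts: the authors' matrices hold whole UMI counts per gene (32285 features) and barcode. The submitters' processing notes name Cell Ranger 2.1.1 and mm10, whereas the file headers name Cell Ranger 6.0.0. The wild-type libraries held 50017502 (lamina propria) and 67656927 (SILT) UMIs in 5128 and 8041 barcodes.

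Counts were summed per lineage and scaled to CPM (Python 3.11.15, numpy 2.4.6, pandas 2.3.3). Ratios carry exact conditional binomial intervals (scipy 1.17.1), shares exact Clopper-Pearson intervals; a 0 was set to 3 counts. With 1 library per group no test, p-value or paired fit was made, and tissue and library cannot be told apart. TMM factors came from edgeR 4.0.16 and doublets were marked with Scrublet through scanpy 1.11.5 as an alternative, not removed. Transcript lengths came from GENCODE vM21 and promoters from RefSeq, matched by symbol. The members and gene lists were chosen with earlier results of these data known. Named genes were, by rule, the 10 shared genes per direction with the largest smallest ratio at 0.5 of the library's level or more and 5 others, the 8 largest ratios per lineage and direction with and without cells rich in other types' genes, and up to 4 members per list and lineage; genes outside it are marked as such or are receptor, reporter and marker genes. A gene that the rule also named is not reported here. The scripts were tested on simulated data.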

Additional observations from a re-analysis of the deposited data

Results flagged for a closer look

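A set of genes went past 1.5-fold in opposite directions in different lineages of the same libraries, and the differences between lineages were not tested. Ednrb, an endothelin receptor, had log2 ratios of 0.72 in mural cells and -1.21 in the monocyte-macrophage lineage. Mctp1 had 0.68 in endothelial cells and -0.87 in the monocyte-macrophage lineage. Vim, an intermediate filament protein, had 0.66 in mural and -0.74 in dendritic cells, and Slc1a5, a glutamine transporter, 0.66 in mural and -0.65 in dendritic cells. TMM scaling moves dendritic log2 ratios up by 0.23, which brings Vim and Slc1a5 inside the 1.5-fold line there. Slc1a5 in mural cells rests on 67 and 41 UMIs (1.57-fold, 1.04 to 2.36). Its Csf2-/- log2 ratio in mural cells was -0.40, from 49 and 10 UMIs. Ednrb, Mctp1, Vim and Slc1a5 are 4 of 14 genes with such opposite calls on the reported scale at 0.5 of the library's level or more.

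Ratios of opposite sign in wild-type and Csf2-/- mice, with the difference not tested, were those of Med15 in mural cells (-1.96 in wild type and 1.08 in Csf2-/-, the latter from 35 and 20 UMIs) and Ccl22 in dendritic cells (-3.43 in wild type and 3.60 in Csf2-/-, from 8 and 81 UMIs).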

How the results depend on the processing

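Counts below that moved by over 1.5 times are given by setting, and the cause was not tested unless the setting itself tests fewer genes or cells. A floor of 20 CPM gave 734, 2686, 2998 and 2512 called genes in endothelial, mural, dendritic and monocyte-macrophage cells, with 9 mural and 16 dendritic genes of 1 lineage and 97 lower in all 4. A floor of 100 CPM and 60 UMIs gave 187, 733, 782 and 709, with 1 and 1 of 1 lineage and 14 lower in all 4. A fold of 2 (3 for 1 lineage) gave 55, 291, 670 and 343, with 0 and 0 of 1 lineage and 4 higher and 6 lower in all 4. Ratios relative to genes of like length gave 186, 768, 1021 and 573, with 7 dendritic genes of 1 lineage and 24 higher in all 4. Thinning cells to 2000 UMIs left 74 dendritic calls, 0 mural and 4 dendritic genes of 1 lineage and 3 higher and 2 lower in all 4; a thinned gene under 30 UMIs had no value. TMM factors gave 76 higher and 21 lower in all 4 and 4 dendritic genes of 1 lineage. Genes higher in all 4 were 23 with doubled gates and 24 at 5000 to 15000 UMIs, and genes lower in all 4 were 54 at 5% mitochondrial UMIs or less and 12 by the mean over cells. Mural and dendritic genes of 1 lineage were 1 and 4 at 5% mitochondrial UMIs, 4 and 17 with doubled gates, 1 and 8 with the other scaling and 1 and 11 without cells rich in other types' genes. Mural ones were 1 without each gene's top cell, and dendritic ones 9 by the mean over cells and 8 at 5000 to 15000 UMIs. Allowing the other lineages 1.5-fold gave 1 endothelial, 19 mural and 31 dendritic, and the rule of 2-fold from their median 10, 11, 59 and, in monocyte-macrophage cells, 4.

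Log2 ratios that changed sign were Jchain in dendritic cells with doubled gates (-0.88), Kcnq1ot1 (0.30), Med13 (0.010) and Vwf (-0.056) within venule-like endothelial cells, Sypl within Xcr1 or Clec9a cells (0.15), Ednrb in C1q-low cells (0.24), Ifit3 (-0.53) and Isg15 (-0.22) in non-contractile mural cells and, relative to like length, Med13 in the monocyte-macrophage lineage (0.000967). List medians that did were class II genes in mural cells when thinned (-0.051) and tolerogenic and IL-22 axis genes in dendritic cells at the floor of 100 CPM (-0.34). No paired analysis was possible because each genotype and tissue has 1 library.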

Other observations

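Of kept wild-type cells 735 of 4491 in lamina propria (16.4%) and 3286 of 7714 in SILT (42.6%) passed none of the 4 gates, with median UMIs of 1511 and 2603, and 650 and 480 passed several.

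Xist, the RNA of the inactive X chromosome, and Ddx3y, of the Y chromosome, were both present in each lineage. Xist stood at 437 CPM in lamina propria and 289.7 in SILT in endothelial, 656 and 286 in mural, 407 and 97.7 in dendritic and 345 and 260.02 in monocyte-macrophage cells. Ddx3y stood at 45.0 and 37.8, 41.8 and 43.8, 66.8 and 41.5, and 65.8 and 37.6 CPM in the same order.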
